A study of Mus musculus with 12 samples.

Results

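The genes described here encode protein kinase A (PKA), with its catalytic subunits (*Prkaca* and *Prkacb*), type I regulatory subunits (*Prkar1a* and *Prkar1b*) and type II regulatory subunits (*Prkar2a* and *Prkar2b*), together with *Pkia*, which encodes a PKA inhibitor. They were chosen by gene symbol, and all 7 were found among the 16627 genes of the deposited list of polyA sites (PASs), with 14 of its 56204 entries. The study used acute hippocampal mini-slices, with the dentate gyrus trimmed off, from wild-type C57BL/6 mice labelled as 3 months old. The LTP slices were perfused for 5 min with forskolin alone (50 uM) and for another 5 min with forskolin and raised K+ (30 mM) and Ca2+ (10 mM). Control slices from the same animals received the vehicle, 0.2% DMSO, for 10 min, and both were collected 1 hr or 3 hr later. The 12 libraries, 3 in each of 4 groups, were made by 3′READS+, which sequences the 3′ ends of polyadenylated transcripts. The authors excluded a 3 hr control library (replicate 3) as an outlier, and how far the listed PASs rest on it was not examined. The columns of read counts carry names that match no sample label and were not used, so the account below is of where transcripts of these genes are listed to end. How many reads each end received, and whether LTP changed it, was not analysed here.

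PKA is the main effector of cAMP. In the inactive enzyme, a dimer of regulatory subunits holds catalytic subunits, and binding of cAMP to the regulatory subunits frees the catalytic subunits to phosphorylate targets such as the transcription factor CREB. Forskolin, the drug used to induce LTP in these slices, activates adenylyl cyclases and so raises cAMP. PKA signalling is required for late forms of hippocampal LTP. The choice among the PASs of a gene, alternative cleavage and polyadenylation (APA), sets the length of the 3′UTR when the sites lie in the last exon, and can remove coding sequence when a site lies in an intron.

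Each kind of regulatory subunit had a gene with several listed PASs and a gene with a single one, and the catalytic subunits also differed in number. *Prkacb*, *Prkar1a* and *Prkar2b* had 2, 4 and 4 PASs, while *Prkaca*, *Prkar1b*, *Prkar2a* and *Pkia* had 1 each. Thus 3 of the 7 genes (42.9%) had at least 2 PASs of any label, against 67.1% of all listed genes. This count takes in UA sites, which lie upstream of a gene on its opposite strand and are not alternative ends of its transcripts. Such sites were listed for 13.8% of all listed genes and for none of the 7, so the count does not measure the capacity for APA. The median was 1 PAS per gene against 2 over the whole list. Counting only PASs labelled as in the 3′-most exon, 3 of the 6 genes with such a PAS (50.0%) had at least 2. Among all listed genes with such a PAS, the share was 49.5%, close to that in the set. The list was used whole, with no limit on reads or relative abundance applied here, so a PAS with few reads counts as much as any other and these shares do not say how many PASs a gene used appreciably. With so few genes they are a description, and no test was made of them. A single PAS was listed for 5475 genes (32.9% of the list), so that this state of *Prkaca*, *Prkar1b*, *Prkar2a* and *Pkia* is the most common one. The 4 PASs of *Prkar1a* and of *Prkar2b* were reached or exceeded by 32.5% of the listed genes.

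**Figure D1:**
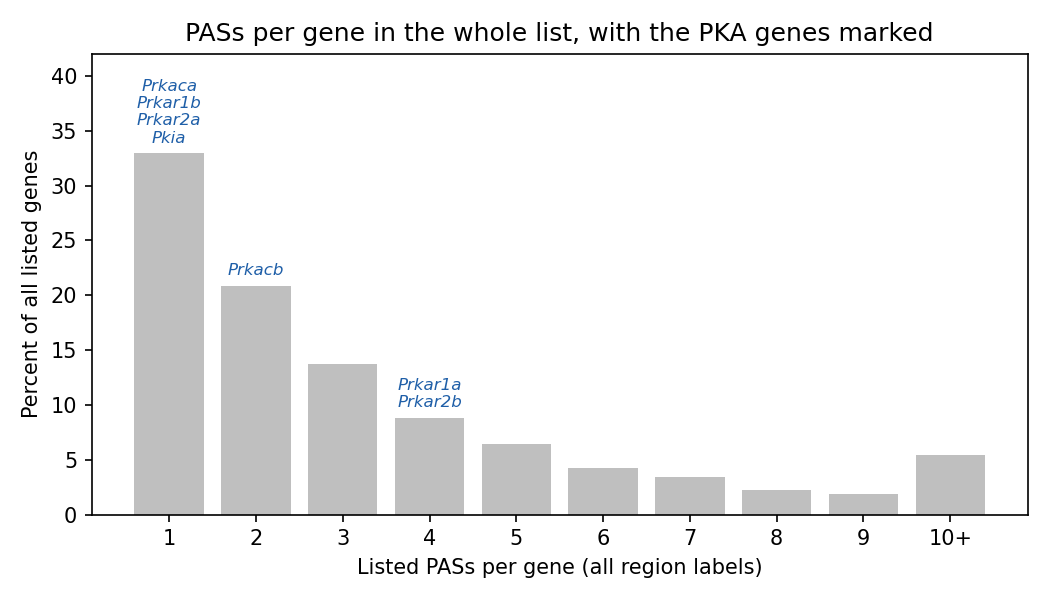
Percent of all listed genes (vertical axis) with each number of listed PASs per gene (horizontal axis, genes with 10 or more together). The names over the bars are the PKA genes with that number of PASs: 4 genes stand over the bar at 1 PAS, *Prkacb* over the bar at 2 PASs, and *Prkar1a* and *Prkar2b* over the bar at 4 PASs.

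None of the PASs of these genes carried an intronic label, and none was labelled as lying in a first or internal exon. All 14 were labelled either exon3, taken here to mean the 3′-most exon, or exon3ext, taken to mean the sequence beyond the annotated end of that exon. The genes whose listed PASs all carried these labels numbered 9280, or 55.8% of the list, and 33.5% of all listed genes had at least 1 intronic PAS. Both shares are of the whole list, without the limits on reads and relative abundance behind the authors' counts of PASs. They are not comparable with the shares that the authors reported. No PAS labelled UA, for sites upstream of a gene on its opposite strand, was listed for any of the 7 genes, against 13.8% of all listed genes. A gene with 1 PAS can carry only 1 label, and 57.1% of the 7 genes had 1 PAS, against 32.9% of all listed genes. The shares over the whole list are not matched for this, so the missing labels may go with the few PASs listed, which was not tested. Among the 1469 genes with exactly 4 PASs, 33.7% had all of them labelled exon3 or exon3ext, as *Prkar1a* and *Prkar2b* did. No PAS of the 7 genes was listed under a further gene.

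The catalytic subunits carry the kinase activity itself. *Prkaca*, which encodes Cα, had its only PAS on the plus strand of chromosome 8 at position 86520343, labelled exon3. Positions are given as in the list, and the submitters' processing notes name mm9 as the genome build. *Prkacb*, which encodes Cβ, lies on the minus strand of chromosome 3, with exon3 PASs at 146393609 and, 1071 nt further downstream, at 146392538. A distance this long between the outermost exon3 PASs was exceeded by 41.9% of the 7465 genes with at least 2 of them on a single chromosome, in which the median was 817 nt and the quartiles were 258 nt and 1770 nt.

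The type I regulatory subunits had 4 PASs in one gene and 1 in the other. *Prkar1a*, which encodes the widely expressed RIα, lies on the plus strand of chromosome 11 and had 4 PASs, all labelled exon3. The first, at 109529109, was followed 1317 nt downstream by a close pair at 109530426 and 109530491, which were 65 nt apart. The last PAS, at 109530959, lay another 468 nt downstream. The outermost sites were 1850 nt apart, the longest distance in the set, and 23.5% of the same 7465 genes exceeded it. Of the 1469 genes with 4 PASs, 24.2% had all of them labelled exon3, as *Prkar1a* did. Its paralog *Prkar1b*, which encodes RIβ, known mainly from the nervous system, had 1 PAS, labelled exon3, at 139493271 on the minus strand of chromosome 5.

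The type II regulatory subunits, which bind A-kinase anchoring proteins with high affinity, were the genes of this set with PASs labelled exon3ext. The label is not particular to them: 1816 listed genes had an exon3ext PAS beyond their last exon3 PAS. *Prkar2a*, which encodes RIIα, had a single PAS, labelled exon3ext, at 108652768 on the plus strand of chromosome 9, and so had no PAS labelled exon3. Such genes were uncommon: 218 genes (1.31% of the list) had an exon3ext PAS and no exon3 PAS, and in 118 of them (0.71%) exon3ext was the only label. *Prkar2b*, which encodes RIIβ, a major regulatory subunit in brain, had exon3 PASs on the minus strand of chromosome 12 at 32644915, at 32644646, 269 nt downstream, and at 32643341, another 1305 nt downstream. Its last PAS, labelled exon3ext, lay at 32643315, only 26 nt beyond the third, just over the 24 nt within which the authors clustered sites. The last exon3 PAS and the next exon3ext PAS were this close or closer in 23 of the 1816 genes that have both in this order (1.27%). The clustering leaves little room for distances under 26 nt, so a low share was largely set in advance and does not measure how unusual *Prkar2b* is. The median distance was 662.5 nt. With the exon3ext PAS, the sites of *Prkar2b* spanned 1600 nt, against 1574 nt for the exon3 PASs alone.

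**Figure D2:**
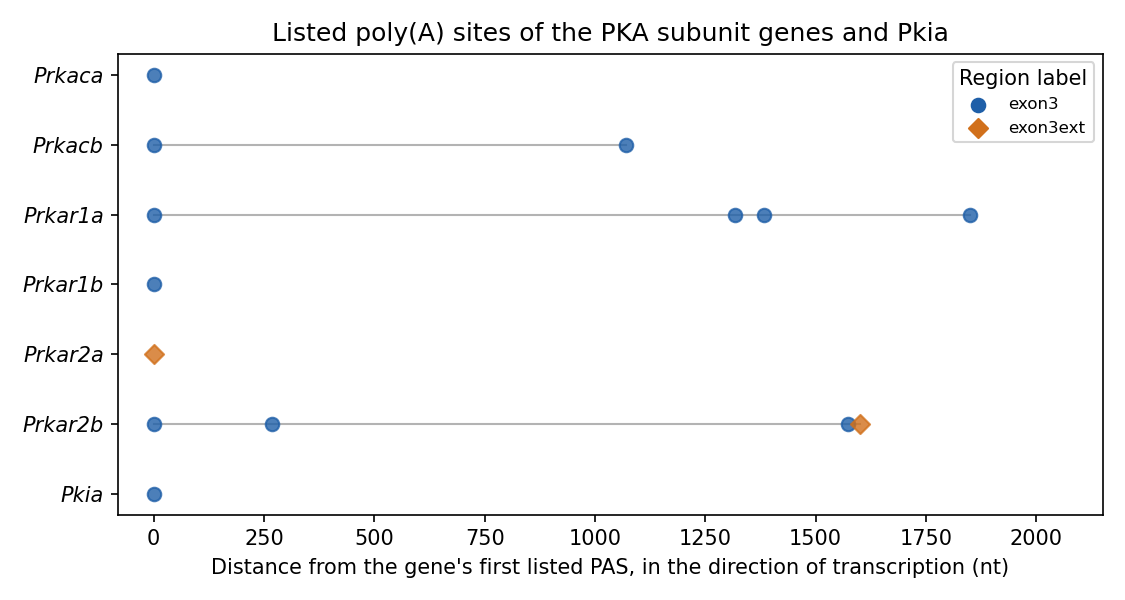
Listed PASs of each gene, placed by their distance in nt from the first PAS of the gene in the direction of transcription. Circles are PASs labelled exon3 and diamonds those labelled exon3ext: *Prkar1a*, *Prkar2b* and *Prkacb* spread over 1850, 1600 and 1071 nt, the last 2 PASs of *Prkar2b* nearly coincide, and the other 4 genes have a single PAS.

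Across *Prkacb*, *Prkar1a* and *Prkar2b*, the distances between neighbouring exon3 PASs were 65, 269, 468, 1071, 1305 and 1317 nt. Over the 16200 pairs of neighbouring exon3 PASs in the list, the median was 259 nt and the upper quartile 737 nt, so that each of these 3 genes had 1 pair spaced more widely than the upper quartile. The quartile is over pairs and not over genes, and the share of all genes with such a pair was not computed. The count of 3 genes therefore does not show that wide spacing is unusual. In *Prkar1a* the wide interval followed the first PAS, and in *Prkar2b* it preceded the last exon3 PAS.

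*Pkia* encodes an inhibitor that binds free catalytic subunits as a pseudosubstrate. Its only PAS, labelled exon3, was at 7445366 on the plus strand of chromosome 3. Among its paralogs, *Pkig* also had 1 exon3 PAS, whereas *Pkib* had 3, which spanned 1845 nt.

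The A-kinase anchoring proteins tether PKA to its sites of action in the cell. Of the 18 further genes of the PKA system examined, which are *Pkib*, *Pkig*, the related kinase gene *Prkx* and the *Akap* genes, all but *Akap4* were listed, with 51 PASs. Among the 14 listed *Akap* genes, 10 (71.4%) had at least 2 PASs, close to the 67.1% of all listed genes, and the median of 2 per gene was that of the whole list. *Akap10* had the most, with 9 PASs, of which 4 were intronic, followed by *Akap5* and *Akap9* with 7 each. *Akap5* encodes a postsynaptic anchor, and its 6 exon3 PASs spanned 4090 nt, more than the PASs of any PKA subunit gene. An intronic PAS was listed for *Akap9*, *Akap10* and *Prkx*, which are 17.6% of the 17 listed genes, against 33.5% of all genes.

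The distance to PASs of other genes also differed within the set. The closest were those of *Prkaca*, with a UA site of 1700067K01Rik on the opposite strand 2342 nt downstream, and of *Prkar1a*, whose last PAS lay 3281 nt from an exon3 PAS of *Fam20a*, also downstream on the opposite strand. Counting only PASs on a gene's own strand, the distance for *Prkar1a* was 94384 nt, and *Prkar2b*, at 9844 nt, was then the closest after *Prkaca*, at 2561 nt. On either strand, the distance in the remaining genes ran from 9844 nt for *Prkar2b* to 108397 nt for *Pkia*, and the median over all listed genes was 13476 nt.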

How the data were processed

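RNA of hippocampal slices was sequenced by 3′READS+ in 12 libraries. The authors mapped reads with Bowtie2, to mm9 per the submitters' notes, took as PAS reads those that begin with Ts not in the genome, and clustered PASs within 24 nt. The deposited table is 1 list for all libraries, and its other numeric columns, 12 columns of read counts, were not used because their names match no sample label. No depth, replicate error or test between groups is therefore given, and tissue markers were not checked.

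Members were found by symbol. PASs, region labels and distances were computed for all genes in Python 3.11.15 (pandas 2.3.3, numpy 2.4.6) and drawn in matplotlib 3.10.9. Counts, spans and nearest distances were first tested on a simulated list of exon3 sites on the plus strand of a single chromosome. Minus-strand genes, other labels and own-strand distances were not covered by it. Entries were counted once for each gene that lists them. The meaning of the region labels was taken from their names. All 7 members were named, whatever their values, as were *Pkib*, *Pkig*, and the genes of the wider list with no PAS or the most. The neighbouring genes, *Akap5*, *Akap9* and *Prkx* were named after their values were seen. Members and lists were chosen with earlier results of these data known. Sequences were not read, since the reference is GRCm38.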

Additional observations from a re-analysis of the deposited data

How the results depend on the processing

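The members had 14 PASs, 3 members had at least 2 PASs and 3 had at least 2 exon3 PASs under each alternative run for these counts, and the intronic share was 0% in each. These alternatives could not have moved the values and do not show stability: the members have no UA PAS, no PAS shared with another gene, no PASs within 24 nt of each other and no intronic PAS, and the exon3ext PASs fall in members that stay on the same side of 2 PASs. The alternatives were run on the members only, so the shares over the whole list set beside them were not recomputed. Adding exon3ext PASs moved the distance between the outermost sites of *Prkar2b* from 1574 to 1600 nt and moved neither of the other spans. With PASs on the gene's own strand alone, an alternative chosen after seeing the data, the distance to the nearest PAS of another gene moved for 4 members, to 2561 nt for *Prkaca*, 83316 nt for *Prkacb*, 94384 nt for *Prkar1a* and 22761 nt for *Prkar1b*, and stayed the same for the other 3. The planned tests of LTP against control and their alternatives were not run, since the read columns were not used, and neither was the planned comparison of member proteins. No paired analysis was possible because the read columns carry no animal number that matches the labels.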
